A study of Mus musculus with 6 samples.

Results

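The genes that drive a cell through mitosis were followed as one set in the E16.5 mouse lateral ganglionic eminence (LGE), the embryonic source of striatal neurons. The set holds 48 genes of the G2 and M phases, chosen by gene symbol from cell cycle knowledge. They encode mitotic kinases and cyclins, centromere and kinetochore proteins, spindle proteins and condensins. An activator and an E2 enzyme of the anaphase-promoting complex, and separase, are also included. All 48 were present among the 15168 genes of the deposited table, and all 48 were among the 15102 that passed a filter of 0.5 CPM (a gene's reads scaled to a common library size) in at least 3 libraries.

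Bulk RNA-seq covered 3 libraries of *Dlx5/6-CIE* controls and 3 libraries of *Dlx5/6-CIE; Rosa-Sp9-OE/+*. Both groups carried the *Dlx5/6-CIE* transgene, in which *Dlx5/6* elements drive Cre recombinase and EGFP in LGE progenitors and their descendants. The second group also carried, at the *Rosa26* locus, 1 copy of an *Sp9* coding sequence behind the CAG promoter and a floxed LacZ-stop cassette. SP9 was therefore forced only in cells with a history of Cre, and cells of other lineages in the dissected tissue kept the stop. The controls were littermates, and the mice had mixed C57BL/6J, 129S6 and CD1 backgrounds. The labels do not say whether each library was a separate embryo, and the p-values therefore reflect only how these libraries spread, which may be technical.

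Mitotic genes are transcribed in a wave that starts in G2 and ends when the cell divides. Cyclin B with CDK1 starts mitosis, the kinetochore ties each centromere to spindle microtubules, the spindle checkpoint holds anaphase back until every chromosome is attached, and the anaphase-promoting complex then releases the sister chromatids. In the LGE, dividing radial glia and intermediate progenitors express these genes, while postmitotic neurons have shut them down. In bulk tissue, fewer dividing cells and less mitotic RNA per dividing cell cannot be told apart.

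Mitotic promoters are known for 2 elements. The first is the cell cycle genes homology region (CHR), bound by the DREAM complex in resting cells and by B-MYB and FOXM1 complexes in dividing cells. The second is the CCAAT box, bound by NF-Y. The promoters of the mitotic genes were searched on both strands. The letters were TTTGAA and TTCGAA for the CHR, CCAAT, and TTTCCCGC, TTTCGCGC, TTTGCCGC and TTTGGCGC for E2F. Whether these elements bear on the levels in these libraries was not tested. RefSeq promoters of GRCm38.p6, from 250 bases before to 50 bases after the start, were matched for 41 of the 48 genes, with 46 promoters. The sequences below are the 250 bases before the start of 2 genes without overlap between the groups (*Cdc20*, *Kif11*), of *Cdk1*, and of the proliferation markers *Top2a* and *Mki67*. Capitals mark CHR and CCAAT matches on either strand, and each is written along the gene's own strand.
*Cdk1*, chr10:69352913-69353162, minus strand: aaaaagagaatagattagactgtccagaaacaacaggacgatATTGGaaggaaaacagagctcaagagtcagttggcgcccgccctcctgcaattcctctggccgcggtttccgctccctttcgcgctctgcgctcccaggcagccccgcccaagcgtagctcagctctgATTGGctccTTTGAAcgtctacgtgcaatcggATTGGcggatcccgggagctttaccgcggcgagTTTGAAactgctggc
*Cdc20*, chr4:118437344-118437593, minus strand: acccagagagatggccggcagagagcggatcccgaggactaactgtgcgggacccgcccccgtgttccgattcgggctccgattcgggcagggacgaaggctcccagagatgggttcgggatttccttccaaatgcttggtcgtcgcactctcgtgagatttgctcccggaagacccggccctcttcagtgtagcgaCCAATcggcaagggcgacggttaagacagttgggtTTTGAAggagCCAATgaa
*Kif11*, chr19:37376132-37376381, plus strand: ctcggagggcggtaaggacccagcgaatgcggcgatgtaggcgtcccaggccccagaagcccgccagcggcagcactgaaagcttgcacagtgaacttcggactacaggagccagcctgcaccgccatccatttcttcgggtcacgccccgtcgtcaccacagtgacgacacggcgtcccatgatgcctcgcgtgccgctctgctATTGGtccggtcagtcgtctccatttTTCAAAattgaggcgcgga
*Top2a*, chr11:99024190-99024439, minus strand: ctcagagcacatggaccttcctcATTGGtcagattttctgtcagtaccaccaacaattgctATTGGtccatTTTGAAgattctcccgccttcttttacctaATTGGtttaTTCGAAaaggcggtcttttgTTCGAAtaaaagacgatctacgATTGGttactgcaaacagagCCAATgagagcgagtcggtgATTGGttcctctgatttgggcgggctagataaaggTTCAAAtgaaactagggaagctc
*Mki67*, chr7:135716380-135716629, minus strand: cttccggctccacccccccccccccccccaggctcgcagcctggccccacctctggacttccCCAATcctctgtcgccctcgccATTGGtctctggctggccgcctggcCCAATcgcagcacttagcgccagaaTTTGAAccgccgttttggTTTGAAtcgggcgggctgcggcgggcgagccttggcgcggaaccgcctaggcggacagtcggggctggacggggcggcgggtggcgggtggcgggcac
Counted over both strands, *Top2a* held 4 CHR and 6 CCAAT matches in this stretch, *Cdk1* and *Mki67* held 2 and 3 each, *Cdc20* held 1 and 2, and *Kif11* held 1 and 1.

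A CHR match was found in 35 of the 46 promoters of mitotic genes, which is 76.1%, against 19.2% of 32851 RefSeq promoters. A CCAAT box was found in 36 (78.3%, against 37.4%), and both elements in 30 (65.2%, against 7.52%). E2F letters were found in 2 promoters, those of *Cdk1* and *Ncapg* (4.35%, against 2.26%). Of the 34 promoters matched for S phase genes, 20.6% had a CHR match, 64.7% a CCAAT box and 41.2% E2F letters. Of the 103 promoters of other G2 and M phase genes, 46.6% had a CHR match, 58.3% a CCAAT box and 15.5% E2F letters. These matches describe letters and not binding. Of the genes with a promoter, *Birc5*, *Mad2l1*, *Ncaph*, *Nuf2* and *Nusap1* held neither a CHR nor a CCAAT match.

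The CHR matches lay close to the start site. In 21 of the 46 promoters (45.7%) a match lay within the first 50 bases after the start, where 2.46% of all promoters had one, and in 21.7% within the 50 bases before it, against 2.97%. CCAAT boxes lay further upstream, in 45.7% of the promoters within the last 50 bases before the start (all promoters, 9.03%) and in 41.3% in the 50 bases before those (12.5%). The 30-base windows below show CHR matches, in capitals, just after the start in *Plk1*, a mitotic kinase, *Aurka*, a kinase of the spindle poles, and *Ccnb2*, a mitotic cyclin.
*Plk1*, chr7:122159453-122159482, plus strand: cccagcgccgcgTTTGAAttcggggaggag
*Aurka*, chr2:172370521-172370550, minus strand: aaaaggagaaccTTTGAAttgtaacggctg
*Ccnb2*, chr9:70421533-70421562, minus strand: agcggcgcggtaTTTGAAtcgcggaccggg
Counted from 1 at the first transcribed base, the first base of the match was at 31 in *Plk1*, 33 in *Aurka* and 5 in *Ccnb2*.

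**Figure D1:**
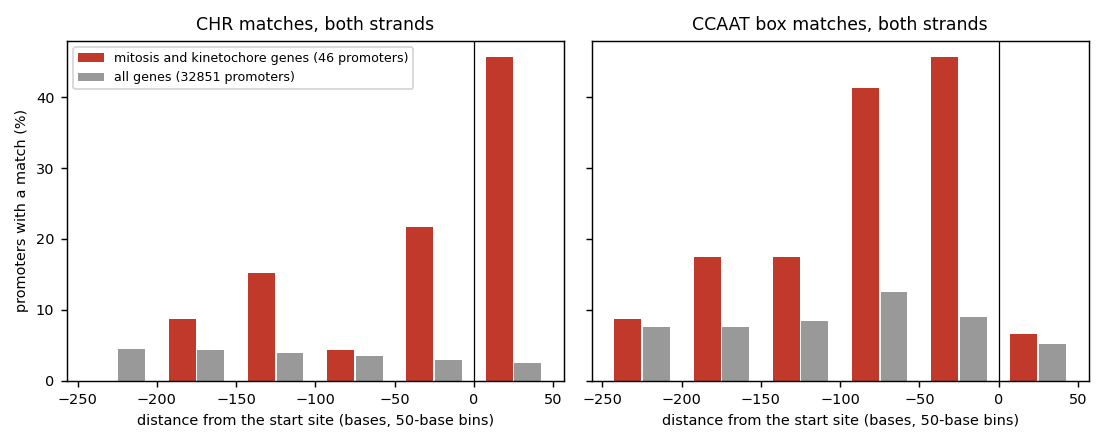
Share of promoters (%) with at least 1 CHR match (left) or CCAAT box (right) against distance from the start site in 50-base bins, for 46 promoters of mitotic genes (red) and 32851 RefSeq promoters (grey). The tallest red bars are 45.7% in both panels, in the 50 bases after the start for the CHR and in the 50 bases before it for the CCAAT box.

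Recovered reads in listed genes numbered 19410365 to 22174028 in the control libraries and 21767904 to 25126847 in the overexpression libraries. *Sp9* was at 130, 147 and 170 CPM in controls 1, 2 and 3, and at 178, 268 and 305 CPM in the overexpression libraries, so the groups did not overlap. Its difference was 0.72 on the log2 scale (SE 0.19, adjusted p = 0.788 from limma and 0.00669 from DESeq2). The LGE genes *Gsx2* (14.7 to 24.4 CPM in controls) and *Dlx1* (711 to 902 CPM) were present in every control library, as was *Nkx2-1* of the neighbouring medial ganglionic eminence (30.3 to 53.5 CPM). The groups also differed in sex: *Xist* was at 2227 and 2191 CPM in controls 1 and 2, at 2.35 CPM in control 3 and between 1.37 and 2.33 CPM after overexpression.

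The mitotic genes were expressed at levels from 7.15 CPM (*Cenpk*, mean of 6 libraries) to 609 CPM (*Mki67*). Per kilobase of annotated exon, which allows genes of different length to be compared, *Top2a* was highest at 65.0 CPM per kb. *Mki67* (60.5) and *Cdc20* (55.2) came next, followed by *Ccna2* (37.9), *Smc4* (37.3) and *Tpx2* (35.6). The lowest were kinetochore genes, *Cenpk* at 1.37 and *Ndc80* at 4.62 CPM per kb, and the lengths count every annotated exon, used here or not. Even *Cenpk* was covered by at least 122 reads in every library. The counting error at a gene's mean number of reads had a median of 2.44% over the genes and reached 7.97% for *Cenpk*, whose lowest single value had one of 9.05%.

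The 48 genes moved as a block, and the libraries that stood apart were controls. Summed over the set, the level was 4483 CPM in control 1, 5662 CPM in control 2 and 5789 CPM in control 3, against 4913, 4919.9 and 4807 CPM in the overexpression libraries. The overexpression libraries thus lay between the low control and the high pair. Group means were 5311 ± 720.3 CPM in controls and 4880.0 ± 63.5 CPM in overexpression (SD, n = 3 each). The highest control was 1.29 times the lowest, while the highest overexpression library was 1.02 times the lowest. The mean of controls 2 and 3 was 1.28 times control 1.

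The same order was seen gene by gene. All 48 genes were below their 6-library mean in control 1 and above it in controls 2 and 3, and every gene had its highest value in one of these, 25 in control 2 and 23 in control 3. Over all genes tested, 37.6% had their highest value in control 2 or 3. Control 1 was the lowest library for 36 of the 48 genes (18.9% of all genes), overexpression 3 for 9 and overexpression 2 for 3. The median log2 deviation from the 6-library mean was -0.17, 0.18 and 0.17 in controls 1 to 3, and -0.05, -0.05 and -0.10 in the overexpression libraries. Around these medians the genes spread little, with an SD over genes of 0.05 to 0.07 in each library.

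**Figure D2:**
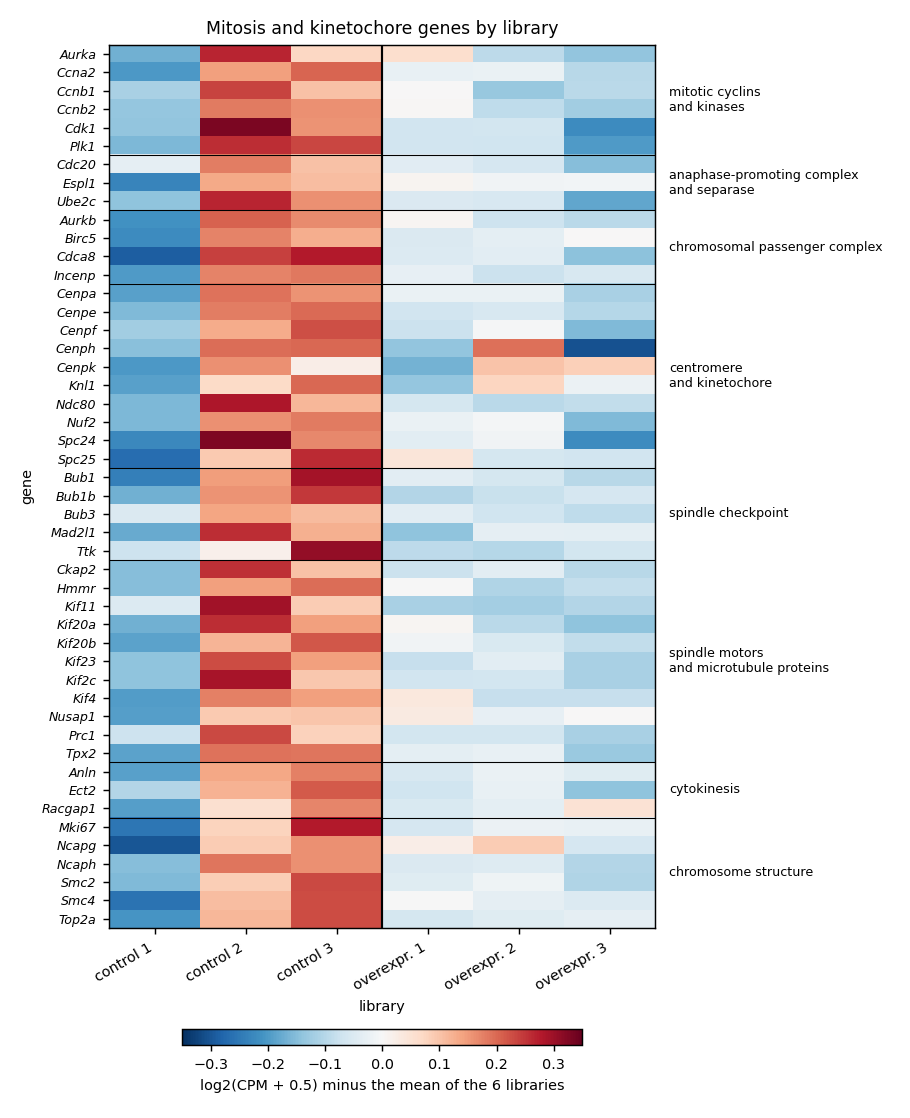
Deviation of each of the 48 mitotic genes (lines, ordered by role) in each library (columns) from its 6-library mean, in log2(CPM + 0.5); red is above the mean and blue below, on a scale from -0.35 to 0.35. Control 1 is blue in all 48 genes, controls 2 and 3 are red in all 48, and most values of the overexpression libraries are pale blue.

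In these libraries the spread between replicates was larger in the controls. The median coefficient of variation (CV) of the mitotic genes was 14.1% over the controls and 3.67% over the overexpression libraries. It was larger in the controls for 47 of the 48 genes (97.9%). The genes moved together, so this count does not stand for 48 separate observations. For the 10714 genes in the same range of mean CPM the medians were 6.77% and 5.76%, and 57.1% were more variable in the controls. Taken as a share of the summed set in each library, a gene's level was steadier, with a median CV over the 6 libraries of 4.49% against 10.7% for its CPM. *Cenpe*, a kinetochore motor (1.46%), *Ccna2*, cyclin A (1.47%), and *Anln*, a scaffold of the contractile ring (1.55%), kept the steadiest shares, each below its own counting error of 1.96, 1.71 and 2.87%. The least steady shares were those of *Cenph* (11.2%) and *Cenpk* (9.67%), the least abundant genes of the set, and of *Kif11* (7.51%), *Spc24* (7.38%) and *Cdk1* (7.37%).

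Against this spread, no mitotic gene passed the test between the genotypes. By value, 45 of the 48 genes were lower and 3 were higher in the overexpression group, where 49.8% of all genes tested were lower. The median log2 difference of the set was -0.13, with a range from -0.23 to 0.03 and a median SE of 0.10, and over all genes tested the median was 0.00. At an adjusted p under 0.05, limma called 0 of the 48 genes (0.0265% of all genes tested), edgeR called 0 (0.0331%) and DESeq2 called 0 (0.225%). At an unadjusted p under 0.05, limma found 2 lower and 0 higher, beside 2.84% and 2.68% of all genes tested, edgeR found 2 (5.27%) and DESeq2 found 3 (4.67%). The groups did not overlap for 2 genes, both lower in overexpression (5.73% of all genes tested), and for 0 genes in the other direction (5.46%).

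The difference depended on which controls were used. Without control 1, all 48 genes were lower by value in the overexpression group (50.1% of all genes tested), with a median of -0.24 and a range from -0.36 to -0.09. In that fit limma gave 42 genes an unadjusted p under 0.05, all lower (6.0% of all genes tested), 46 had no overlap between the groups (17.2%), and 0 passed the adjusted threshold (0.0993%). All 48 genes were below their 6-library mean in control 1, so leaving it out lowered every difference. These counts therefore give no separate evidence of a decrease. Against control 1 alone, 43 of the 48 genes were higher in overexpression (50.9% of all genes tested), with a median of 0.10. Without control 2 or without control 3 the median was -0.06 in either case. Control 3 is the only control with the low *Xist* level of the overexpression libraries, and against it alone all 48 genes were lower by value, with a median of -0.23 (50.9% of all genes tested). The overexpression values all lay on one side of control 3 for 47 of the 48 genes (55.3% of all genes tested) and on one side of control 1 for 38 (53.5%). All 48 genes were above their 6-library mean in control 3 and below it in control 1. The counts against a single control therefore repeat the offset of that library and give no separate evidence. Controls 1 and 2 shared the high *Xist* level and lay on opposite sides of the mean for all 48 genes. No overexpression library had the high *Xist* level, and only control 3 had the low level. Sex and genotype therefore cannot be told apart in these libraries.

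**Figure D3:**
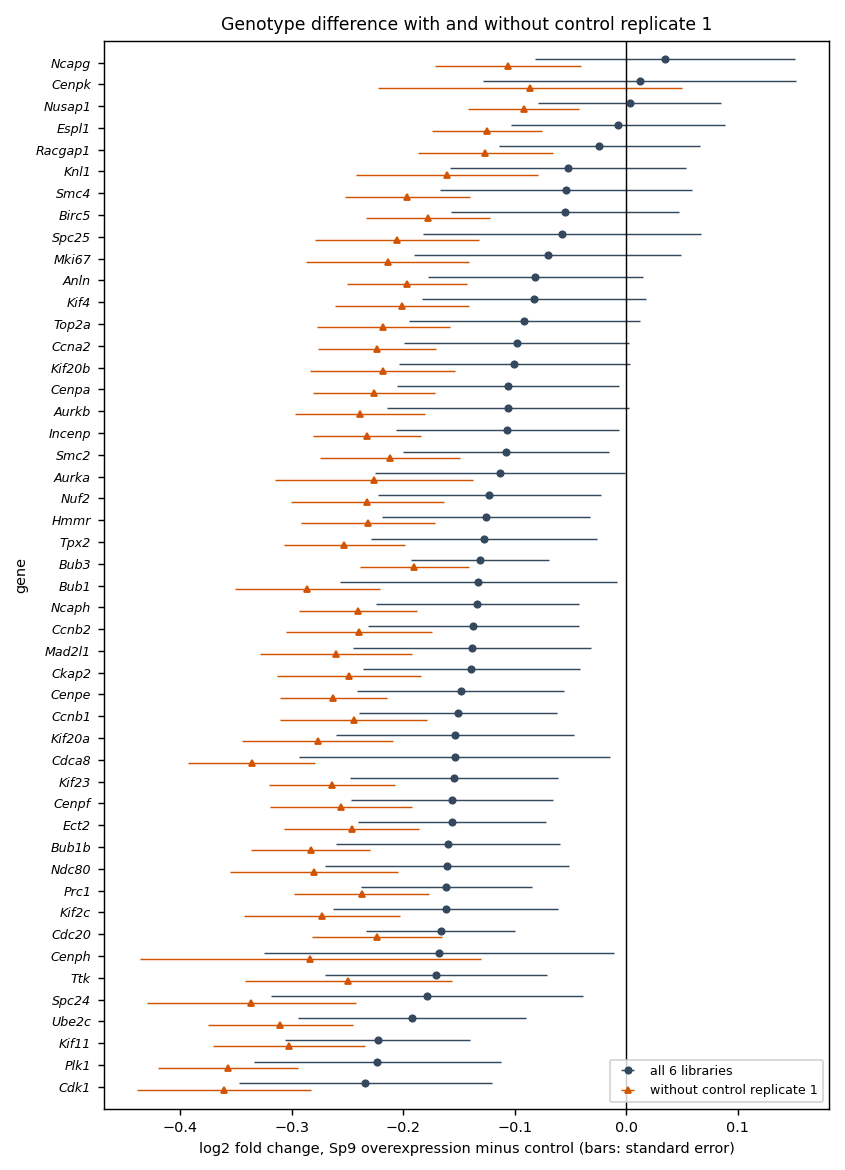
Log2 fold change (overexpression minus control, x axis) of each mitotic gene with all 6 libraries (dark circles) and without control replicate 1 (orange triangles); bars are standard errors. With all libraries the points run from -0.23 to 0.03, and without control replicate 1 every point lies below 0, from -0.36 to -0.09.

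The mitotic cyclins and kinases were 6 of 6 lower by value, with a median log2 difference of -0.14. *Cdk1*, the kinase that starts mitosis, showed the largest difference of the set. It was at 71.5, 99.1 and 87.8 CPM in controls 1 to 3 and at 75.1, 75.3 and 67.4 CPM in the overexpression libraries. Controls 2 and 3 lay above all overexpression libraries, and control 1 lay among them. The difference was -0.23 (SE 0.11, adjusted p = 0.788 from limma). *Plk1*, the polo-like kinase that acts from mitotic entry to cytokinesis, had the same layout, with 57.9, 77.3 and 76.0 CPM in controls and 61.7, 61.5 and 56.3 CPM in overexpression (-0.22, SE 0.11, adjusted p = 0.788). Its promoter, like that of *Cdk1*, carries the CHR letters shown above. The A and B cyclins partner the kinase encoded by *Cdk1*. *Ccna2* ran from 134 to 177 CPM in controls and from 144 to 151 CPM in overexpression. *Ccnb1* ran from 132 to 168 and from 130 to 142 CPM, and *Ccnb2* from 36.6 to 45.8 and from 37.0 to 40.4 CPM. *Aurka*, which matures the spindle poles, ran from 37.4 to 50.7 CPM and from 38.2 to 43.9 CPM. In each of these 4 genes every overexpression value lay below controls 2 and 3.

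The genes that end mitosis hold one of the 2 without overlap between the groups. *Cdc20* encodes the activator that directs the anaphase-promoting complex to its substrates. Its levels were 100.6, 116 and 110.4 CPM in controls and 100.02, 98.6 and 92.6 CPM in overexpression, so that control 1 and overexpression 1 differed by less than their counting error of up to 2.23%. The difference was -0.17 (SE 0.07, unadjusted p = 0.0376, adjusted p = 0.788 from limma). *Ube2c*, the E2 enzyme of the same complex, was at 83.2, 110.5 and 103 CPM in controls and at 88.5, 88.3 and 80.8 CPM in overexpression (-0.19, SE 0.10). *Espl1*, the separase that cuts cohesin, was nearly level, with a difference of -0.01 (SE 0.10). Its 3 overexpression values, 81.4, 80.1 and 80.3 CPM, lay between control 1 at 68.7 CPM and the other controls at 88.7 and 87.2 CPM.

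The chromosomal passenger complex corrects faulty attachments at the centromere. Its 4 genes, the kinase *Aurkb*, the scaffold *Incenp*, *Birc5* (survivin) and *Cdca8* (borealin), were all lower by value, with a median of -0.11 and a range from -0.15 to -0.05. All 4 had their lowest value in control 1. *Cdca8* varied most over the controls, from 65.5 CPM in control 1 to 94.6 and 97.2 CPM in controls 2 and 3, around 72.4 to 78.0 CPM in overexpression. *Incenp* was at 95.6, 124 and 125 CPM in controls and at 108, 104 and 106 CPM in overexpression. *Aurkb* ran from 50.4 to 67.6 CPM in controls and from 54.8 to 58.8 CPM in overexpression, and *Birc5* from 43.8 to 57.7 and from 49.3 to 51.1 CPM. The 3 overexpression values of each of the 4 genes lay inside its control range.

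Of 10 centromere and kinetochore genes, 9 were lower by value and 1 was higher, with a median of -0.14. *Cenpa*, the histone that marks the centromere, was at 78.4, 102 and 99.9 CPM in controls and at 88.0, 88.1 and 82.7 CPM in overexpression. *Cenpf*, a large protein of the outer kinetochore, ran from 168 to 214 and from 164 to 183 CPM, and *Cenpe*, the plus-end motor there, from 106 to 135 and from 109.8 to 113 CPM. The microtubule-binding NDC80 complex has 4 subunits. *Ndc80* was at 26.7, 36.4 and 32.4 CPM in controls and at 28.5, 27.9 and 28.1 CPM in overexpression, and *Spc24* was at 22.7, 33.4 and 29.9 CPM and at 25.9, 26.3 and 22.8 CPM. *Nuf2* (-0.12) and *Spc25* (-0.06) differed less. All 4 subunits were lowest in control 1. *Knl1*, the scaffold that recruits checkpoint proteins, differed by -0.05 (SE 0.11). *Cenpk* and *Cenph* belong to the inner network that sits on centromeric chromatin and were the rarest genes. *Cenpk* was at 6.12, 8.01 and 7.24 CPM in controls and at 6.29, 7.66 and 7.56 CPM in overexpression, a difference of 0.01 (SE 0.14, adjusted p = 0.986 from limma). *Cenph* ran from 11.2 to 14.4 CPM in controls, and overexpression 2, at 14.3 CPM, lay above overexpression 1 and 3 at 11.3 CPM or less.

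The 5 spindle checkpoint genes were all lower by value, within a narrow range from -0.17 to -0.13. *Ttk* (MPS1), the kinase at the head of the checkpoint, was at 33.7, 36.0 and 44.1 CPM in controls and at 33.3, 33.1 and 33.9 CPM in overexpression. Control 3 was highest, and control 1 lay among the overexpression libraries. *Bub1* ran from 45.3 to 65.7 CPM in controls and reached at most 52.2 CPM in overexpression, and its relative *Bub1b* from 91.3 to 122 and from 95.6 to 98.4 CPM. *Bub3*, which carries both to the kinetochore, had the smallest SE of the set (-0.13, SE 0.06, unadjusted p = 0.0668 from limma), with 105, 119 and 117 CPM in controls and 106, 103 and 102 CPM in overexpression. *Mad2l1*, the inhibitor of *Cdc20*'s product, ran from 53.3 to 72.2 CPM and from 54.5 to 59.0 CPM. It is the only gene of the set on chromosome 6, which also carries *Rosa26*.

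Among 11 spindle motors and microtubule proteins, 10 were lower by value and 1 was higher, with a median of -0.14. *Kif11* (Eg5), the motor that pushes the spindle poles apart, was the other gene without overlap between the groups. It was at 139.7, 177 and 154 CPM in controls and at 133, 133 and 135 CPM in overexpression. Control 1 lay just above the overexpression libraries, which were nearly identical. The difference was -0.22 (SE 0.08, unadjusted p = 0.0274, adjusted p = 0.788 from limma), and without control 1 it was -0.30. *Prc1*, which bundles microtubules of the central spindle (-0.16, SE 0.08), *Kif2c*, which depolymerises them (-0.16), and *Kif23*, a motor of the midzone (-0.15), followed. *Kif20a*, *Ckap2*, *Tpx2* and *Hmmr* lay between -0.15 and -0.13, and *Kif20b* and the chromokinesin *Kif4* at -0.10 and -0.08. *Kif4* is the only X-linked gene of the set, with 60.3, 78.1 and 76.2 CPM in controls and 70.8, 65.3 and 65.2 CPM in overexpression. *Nusap1*, which stabilises microtubules near chromosomes, was level between the groups, with 86.9, 106 and 106 CPM in controls and 102, 97.3 and 99.5 CPM in overexpression (0.00, SE 0.08, adjusted p = 0.994 from limma). Its sign turned to below 0 with TMM scaling and in edgeR and DESeq2.

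The 3 genes of cytokinesis had a median of -0.08. *Racgap1*, a subunit of centralspindlin, was among the 3 most abundant genes of the set by CPM. It was at 196, 233 and 252 CPM in controls and at 216, 218 and 231 CPM in overexpression, so the overexpression values lay inside the control range. The difference was -0.02 (SE 0.09, adjusted p = 0.958 from limma). *Ect2*, the exchange factor that it recruits, differed by -0.16 (SE 0.08), and *Anln* by -0.08 (SE 0.10).

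Of the 6 genes of chromosome structure, 5 were lower and 1 was higher by value, with a median of -0.08. *Top2a*, the topoisomerase that untangles sister chromatids, was at 505, 632 and 683 CPM in controls and at 559, 566 and 570.2 CPM in overexpression. *Mki67*, the protein that coats mitotic chromosomes and the common marker of dividing cells, was at 508, 639 and 734 CPM and at 581, 597 and 594 CPM. In both genes control 1 was lowest, controls 2 and 3 were highest and the overexpression values lay in between. The differences were -0.09 (SE 0.10, adjusted p = 0.849 from limma) for *Top2a* and -0.07 (SE 0.12, adjusted p = 0.897) for *Mki67*, and -0.22 and -0.21 without control 1. The condensin genes *Smc2* (-0.11), *Smc4* (-0.05), *Ncaph* (-0.13) and *Ncapg* followed the same layout. *Ncapg* had the highest difference of the set, 0.03 (SE 0.12, adjusted p = 0.952), with 43.7, 57.3 and 60.2 CPM in controls and 54.8, 57.3 and 51.7 CPM in overexpression. Without control 1 it was -0.11.

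**Figure D4:**
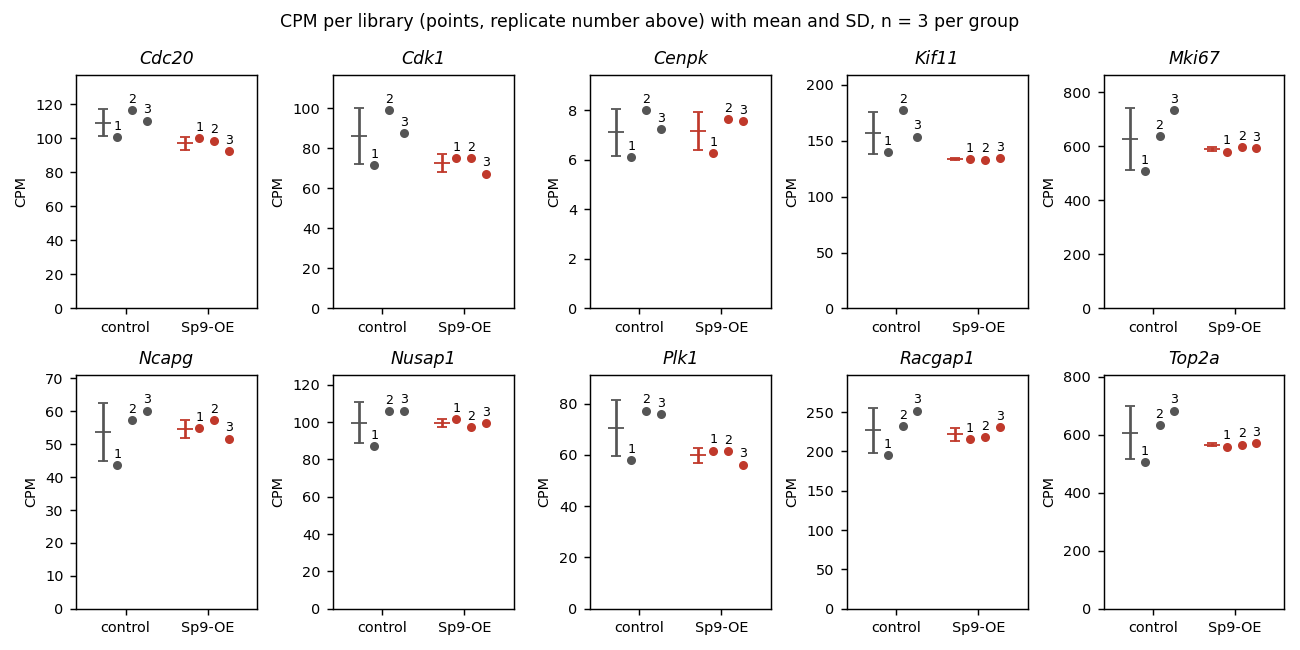
CPM of 10 mitotic genes in each library (points, with the replicate number above) beside the mean and SD of each group (n = 3), for controls (grey) and overexpression (red, Sp9-OE); axes start at 0. Control 1 is the lowest control in all 10 panels, and the overexpression values of *Kif11* and *Cdc20* lie below every control.

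Other genes of the cell cycle were compared in the same fit. A further 111 genes of the G2 and M phases were 85 lower and 26 higher by value, with a median of -0.06, and limma called 0 of them. By role they differed. Of 15 spindle genes 14 were lower, of 26 centromere and kinetochore genes 23, and of 16 genes for entry into mitosis 14. The 18 genes listed for the anaphase-promoting complex were 10 lower and 8 higher, with a median of -0.01. The 13 condensin and cohesin genes were 5 lower and 8 higher, with a median of 0.04. Without control 1, 92 of the 111 were lower, with a median of -0.15. The groups did not overlap for 5 genes that were higher in overexpression, namely *Anapc4* and *Anapc7* of the anaphase-promoting complex, *Cenpb* of the centromere, *Ncapd2* and *Cdca3*, and for 3 that were lower, the phosphatase gene *Cdc25b*, *Cenpo* and *Cdca5* (sororin). Of all genes tested, 5.46% were higher and 5.73% were lower without overlap. At an unadjusted p under 0.05 limma found 3 lower and 1 higher, beside 2.84% and 2.68% of all genes tested. At the same threshold edgeR and DESeq2 found 5 each, beside 5.27% and 4.67%. At an adjusted p under 0.05 edgeR called 0 (0.0331% of all genes tested) and DESeq2 called 1 (0.225%). That gene is *Ncapd2*, the condensin I subunit that works with *Smc2*, *Smc4*, *Ncapg* and *Ncaph*. It was at 203, 243 and 262 CPM in controls and at 327, 326 and 335 CPM in overexpression (0.49, SE 0.09, adjusted p = 0.539 from limma and 0.000306 from DESeq2). The 4 partners lay between -0.13 and 0.03. *Ncapd2* lies on chromosome 6, 12.1 Mb from *Gt(ROSA)26Sor*, the gene at the *Rosa26* locus. All 3 of these other G2 and M phase genes within 40 Mb of it, *Ncapd2* among them, were higher by value, as were 7575 of the 15102 genes tested. Of the listed S phase and cell cycle exit genes there, *Mcm2* was lower and *Cdkn1b* higher. *Mad2l1*, the gene of the mitotic set on this chromosome, lies 46.5 Mb from the locus and was lower (-0.14). A link to the locus was not tested. *Cdca3* was at 44.5, 56.0 and 55.3 CPM in controls and at 61.8, 57.3 and 56.6 CPM in overexpression, without overlap. The mitotic transcription factor gene *Foxm1* (0.02, SE 0.10), the replication gene *Mcm2* (-0.16, SE 0.08) and the cell cycle inhibitor gene *Cdkn1b* (0.01, SE 0.07) overlapped between the groups, and these 3 were named after their values were seen.

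In the controls, the S phase genes followed the mitotic genes. Of 41 genes for DNA replication, 40 were lower by value and 1 was higher, with a median of -0.13, and all 41 were lower without control 1, with a median of -0.24. All 41 were below their 6-library mean in control 1 and above it in controls 2 and 3. At an adjusted p under 0.05, limma called 0 (0.0265% of all genes tested), edgeR 0 (0.0331%) and DESeq2 0 (0.225%). At an unadjusted p under 0.05, limma found 1, lower in overexpression, beside 2.84% of all genes tested. That gene is *Fen1*, the flap endonuclease. It was at 45.0, 48.5 and 53.1 CPM in controls and at 44.4, 41.7 and 41.6 CPM in overexpression. It was the 1 S phase gene lower without overlap, beside 5.73% of all genes tested. In overexpression 3 the median deviation was -0.16 for the S phase genes and -0.10 for the mitotic genes. In control 1 it was -0.15 for the S phase genes. Their sum was lowest in overexpression 3, at 2605 CPM, against 2673 CPM in control 1. Control 1 was the lowest library for 15 of the 41 S phase genes and 36 of the 48 mitotic genes (18.9% of all genes tested). Of 9 genes of cell cycle exit, 5 were lower and 4 were higher by value, with a median of 0.00. *Cdkn1c* (p57), an inhibitor of cyclin-dependent kinases, was the 1 gene of these higher without overlap, beside 5.46% of all genes tested. It was at 22.0, 16.9 and 21.9 CPM in controls and at 23.4, 22.4 and 25.0 CPM in overexpression (0.22, SE 0.11, adjusted p = 0.788 from limma).

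Markers of cell types differed between the same libraries. The 8 radial glia markers summed to 1808, 2141 and 2078 CPM in controls and to 1670.1 to 1903 CPM in overexpression, with 7 of 8 below their mean in control 1. The 5 markers of medium spiny neurons (MSNs) ran the other way in the controls, with 1513, 1130.5 and 1234 CPM, and reached 1381, 1497 and 1841 CPM in overexpression. Of these 5, 4 were above their mean in control 1, and all 5 were below it in controls 2 and 3. The 5 markers of pyramidal neurons and their progenitors, which belong to the cortex, summed to 99.1, 49.4 and 13.6 CPM in controls and to 34.0 to 48.6 CPM in overexpression. The 6 microglia markers summed to 238 to 317 CPM in controls and to 263, 195 and 68.5 CPM in overexpression 1 to 3. No marker of these lists was at 0 in any library. The part of tissue composition in the differences between libraries was not tested.

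**Figure D5:**
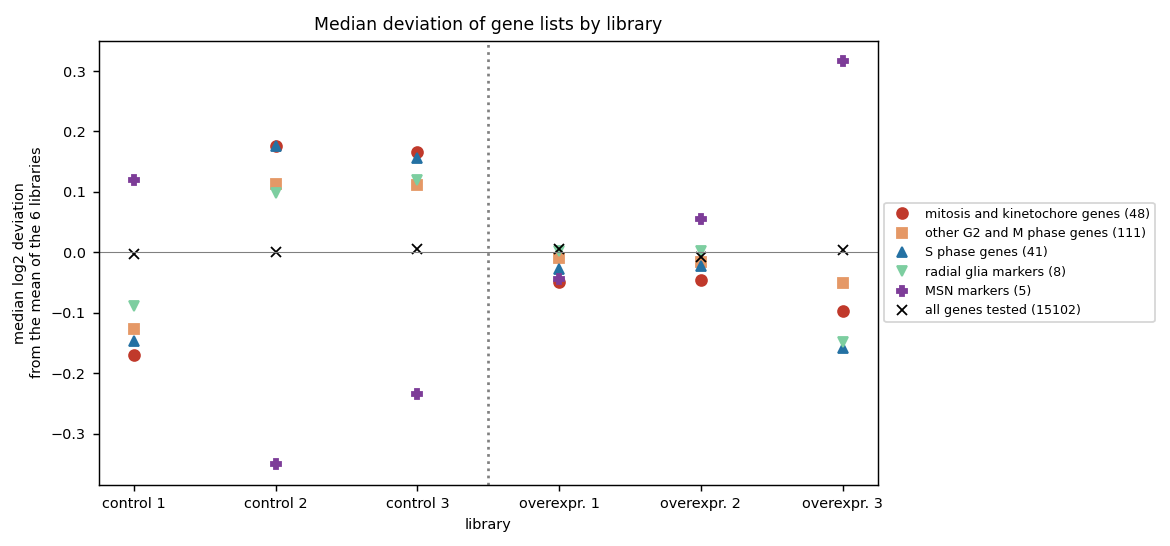
Median log2 deviation from the 6-library mean (y axis) of gene lists in each library (x axis), with the number of genes in parentheses. The mitotic genes (red circles) lie at -0.17 in control 1, at 0.18 and 0.17 in controls 2 and 3 and at -0.05, -0.05 and -0.10 in the overexpression libraries. The S phase list lies beside them except in overexpression 3, where it is at -0.16. The MSN markers (purple) are high in control 1 and low in controls 2 and 3.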

How the data were processed

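The authors dissected the E16.5 LGE of 3 *Dlx5/6-CIE* and 3 *Dlx5/6-CIE; Rosa-Sp9-OE/+* libraries and sequenced ribosomal RNA-depleted, stranded total RNA. Groups and replicate numbers come from the sample labels. The submitters' processing notes name mm10, while the aligner and counter were not given in the sources used here. Deposited by the authors were CPM per gene and library, although the methods of the study name FPKM. They also deposited log2 values (mean log2 CPM and log2 fold change) and p-values of their own comparison, which were not used. Columns of other samples numbered 0. The CPM values summed to between 965678 in control 2 and 1.01464e+06 in overexpression 3. The latter is more than plain CPM can reach, so the deposited values appear to be scaled further per library.

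At least 99.99% of CPM values were whole multiples of the value of 1 read, within rounding and 0.02 reads, so reads were recovered for count models. Replicates differed beyond sampling noise (chi-square per degree of freedom 5.74 to 17.55). Genes that reached 0.5 CPM in 3 or more libraries were tested by limma 3.58.1 in R 4.3.3 on log2(CPM + 0.5), with an intensity trend, two-sided, with Benjamini-Hochberg adjustment over 15102 genes. Alternatives were edgeR 4.0.16 (quasi-likelihood), DESeq2 1.42.0, pseudocounts of 0.1 and 1, other filters and scalings, a replicate block, an *Xist* covariate, control 3 alone, an adjusted p under 0.01 and each library left out. Fold changes are on the log2(CPM + 0.5) scale, which understates those of rare genes.

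The 48 genes and the other lists were chosen with earlier results of these data known. Named in full are *Top2a*, *Mki67*, *Cdk1*, genes without overlap, the 3 largest and 3 smallest log2 differences and the 3 highest mean CPM. Of the other lists, genes without overlap serve as examples. Some marker genes are not reported here. Exon lengths are from GENCODE M21. Promoters are from RefSeq (GRCm38.p6), and *Spc24*, *Tpx2*, *Ccna2*, *Kif20a*, *Smc4*, *Aurkb* and *Incenp* were not matched. Counting errors cover the counting of reads only.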

Additional observations from a re-analysis of the deposited data

How the results depend on the processing

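Of the 48 mitotic genes, limma called 0 in the main fit and in every alternative with more than 1 library per group. The edgeR and DESeq2 fits used all 6 libraries only, and each called 0. The number called among all genes was 4, with 3 to 15 when single libraries were left out, 34 by DESeq2 and 12 against control 1 alone, an alternative chosen after seeing the data. The median difference of the mitotic genes was -0.13, from -0.24 to -0.06 with single libraries left out. It was -0.23 with the *Xist* covariate and 0.10 against control 1 alone. The *Xist* fit rests largely on control 3, the only control with the low *Xist* level. It therefore mostly repeats the comparison with control 3 alone. Genes higher by value numbered 3, with 0 to 9 when single libraries were left out, 0 with the *Xist* covariate, 0 against control 3 alone and 43 against control 1 alone. Genes without overlap numbered 2, with 2 to 46 when single libraries were left out, 47 against control 3 alone (55.3% of all genes tested) and 38 against control 1 alone (53.5%). Fits against a single control assume that it varies like the overexpression libraries. Replicate numbers did not pair the libraries (correlations of same-numbered libraries -0.10, 0.20 and 0.08). With the replicate block, 3 genes were called, 0 of them mitotic, and the median stayed at -0.13.

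Signs turned for some genes. *Nusap1* was at 0.00, and at -0.001 with TMM scaling, -0.007 in edgeR, -0.002 in DESeq2, -0.101 with the *Xist* covariate, -0.094 against control 3 alone and from -0.092 to 0.052 with single libraries left out. *Cenpk* was at -0.010 with the *Xist* covariate, -0.018 against control 3 alone and from -0.086 to 0.097 with libraries left out. *Ncapg* was at -0.148, -0.142 and from -0.106 to 0.123 in the same settings. Left-out libraries moved *Mki67* from -0.214 to 0.051 and *Racgap1* from -0.126 to 0.056. Against control 1 alone *Cdk1* was at 0.020, *Mki67* at 0.217, *Plk1* at 0.045, *Racgap1* at 0.181 and *Top2a* at 0.161. The counting error, with a median of 2.44%, was below the median spread of 14.1% between controls and 3.67% between overexpression libraries.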
